A study of Mus musculus with 20 samples.

Results

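Complement is a set of plasma and cell-surface proteins that mark and destroy targets. Most of its plasma pool comes from the liver, but fibroblasts and other stromal cells also make complement proteins. The classical route starts with the proteases C1r and C1s, which cut C4 and C2. The alternative route uses factor B, both routes cut C3, and the terminal components, C7 among them, build a membrane pore. Cells hold the cascade back with soluble inhibitors such as C1 inhibitor and with membrane regulators such as CD55. Transcription of many complement genes is known to respond to interferons and other inflammatory cytokines. The 9 genes described here were the 9 named in a list of complement genes: C1ra, C1s1, C4b, C2, C3, Cfb, C7, Serping1 and Cd55. All 9 matched a row of the count table by Ensembl identifier, and all 9 were among the 15624 genes tested, out of 55414 listed identifiers.

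The cells were primary mouse cardiac fibroblasts in 5 groups of 4 RNA-seq libraries. All cultures were serum starved, then exposed to an adenovirus for 5 h and kept for 48 h. The virus carried GFP as the control (groups GFP and GFP_TGFB), Cre recombinase to delete exon 2 of Hyal2 (groups Cre and Cre_TGFB) or Hyal2 itself (group Hyal2). Hyal2 is a hyaluronidase, an enzyme that cuts the matrix polysaccharide hyaluronan. The treatment protocol describes cells with a loxP-flanked Hyal2 gene in all groups, whereas the genotype label reads wild type on a C57BL/6J background; the age of the mice is not used here. TGFB names the growth factor transforming growth factor beta, a main driver of matrix production by fibroblasts. Its stated concentration was 20 ng/mL, and the labels do not settle whether the cultures without it received bFGF in its place. Replicates 1 and 2 of each group came from female mice and replicates 3 and 4 from male mice. The library names recur across groups in step with these numbers, so each number is read as 1 cell isolate. The labels do not say whether an isolate pools several hearts.

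Library totals ranged from 38.6 to 104.8 M counts, so that 3 counts stood for 0.0285 to 0.0813 CPM (counts scaled with TMM factors to a common library size). This limit covers counting error only. Hyal2 itself lay at 41.2 ± 3.46 CPM (SD, n = 4) in GFP, 10.4 ± 2.9 CPM in Cre, 934 ± 466 CPM in Hyal2, 36.8 ± 3.9 CPM in GFP_TGFB and 7.42 ± 1.56 CPM in Cre_TGFB. Markers of fibroblasts (11 genes, including Col1a1, Dcn and Pdgfra) summed to 37706 to 70399 CPM per library. Markers of macrophages summed to 110 to 447 CPM, those of lymphocytes to at most 0.406 CPM and those of hepatocytes, the liver cells that supply plasma complement, to at most 2.03 CPM, with Ttr at 0 in all 20 libraries and Alb at a mean of 0.01 CPM or less in each group. In bulk RNA, fewer cells of a type and less RNA per cell cannot be told apart.

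The stretches of DNA just upstream of these genes are shown because the genes moved together in the cultures with TGFB. RefSeq promoter entries (build GRCm38.p6) matched 5 of the 9 members: C3, C7, C1s1, C1ra and Cd55. C4b, C2, Cfb and Serping1 are named only. Each sequence below holds the 250 bases before the annotated start, read 5′ to 3′ on the gene's strand. Capitals mark a match to 1 of 4 motifs of inflammatory transcription factors.
C3: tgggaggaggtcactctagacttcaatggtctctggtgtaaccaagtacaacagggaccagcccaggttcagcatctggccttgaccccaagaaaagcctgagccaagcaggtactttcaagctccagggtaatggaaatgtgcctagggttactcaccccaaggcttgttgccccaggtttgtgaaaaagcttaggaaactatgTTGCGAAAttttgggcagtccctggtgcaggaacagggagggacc
C7: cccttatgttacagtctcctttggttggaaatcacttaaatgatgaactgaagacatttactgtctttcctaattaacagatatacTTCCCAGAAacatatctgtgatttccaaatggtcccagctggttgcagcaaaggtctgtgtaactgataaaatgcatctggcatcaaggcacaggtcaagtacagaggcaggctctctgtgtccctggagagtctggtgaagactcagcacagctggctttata
C1s1: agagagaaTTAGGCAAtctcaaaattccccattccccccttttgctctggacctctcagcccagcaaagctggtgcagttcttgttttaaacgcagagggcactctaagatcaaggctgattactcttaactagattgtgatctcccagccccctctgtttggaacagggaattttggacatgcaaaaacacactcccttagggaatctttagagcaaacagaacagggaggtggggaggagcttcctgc
C1ra: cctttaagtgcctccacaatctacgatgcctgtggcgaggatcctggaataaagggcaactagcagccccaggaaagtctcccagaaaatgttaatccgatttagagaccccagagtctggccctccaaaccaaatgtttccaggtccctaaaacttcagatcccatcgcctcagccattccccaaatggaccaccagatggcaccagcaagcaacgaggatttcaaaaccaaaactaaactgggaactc
These windows are chr17:57228137-57228386 on the minus strand for C3, chr15:5063774-5064023 on the minus strand for C7, chr6:124542360-124542609 on the minus strand for C1s1 and chr6:124512371-124512620 on the plus strand for C1ra. The window of Cd55 is chr1:130462745-130462994 on the minus strand. The motifs searched on both strands were the C/EBP site TTGCNNAA, the STAT element TTCNNNGAA (GAS), the interferon-stimulated response element (GAAA, any 2 bases, GAAA) and the NF-kB consensus.

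The C3 window held a C/EBP match at positions -45 to -38, counted back from the start site, with the letters TTGCGAAA. The C1s1 window held a C/EBP match on the opposite strand at -242 to -235, with the letters TTAGGCAA. The C7 window held a GAS match at -164 to -156, with the letters TTCCCAGAA. No match to any of the 4 motifs was found in the C1ra and Cd55 windows. Of 32851 promoter windows of the same length, 9.56% held the C/EBP site, 7.02% the GAS element, 7.25% the NF-kB consensus and 2.98% the interferon-stimulated response element. A match is a description of the letters and was not tested as a binding site.

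Per kilobase of exon, Serping1 had the highest level of the 9 genes in the GFP cultures, at 433 ± 111 CPM per kb (SD, n = 4). C3 followed at 66.6 ± 13.9 CPM per kb. C1s1 at 33.5 ± 14.1, Cd55 at 27.4 ± 12.2 and C1ra at 24.6 ± 7.69 CPM per kb differed by less than the SD of C1s1. C7 at 7.64 ± 2.36 and C4b at 5.50 ± 1.68 CPM per kb differed by less than the SD of C7. C2 at 0.598 ± 0.252 and Cfb at 0.11 ± 0.0372 CPM per kb were lowest. Serping1 encodes C1 inhibitor, which inactivates C1r and C1s, so the transcript of the inhibitor stood above those of both of its target proteases. In GFP_TGFB the order changed: Serping1 stayed first at 63.2 ± 5.67 CPM per kb, C1ra at 8.19 ± 1.22 and C1s1 at 7.14 ± 0.726 came next, and C3 at 3.22 ± 1.77 CPM per kb lay beside Cd55 at 3.57 ± 1.48. C7 dropped to 0.101 ± 0.085 CPM per kb, below C2 at 0.232 ± 0.0334. Exon lengths came from GENCODE M21 on GRCm38.

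**Figure D1:**
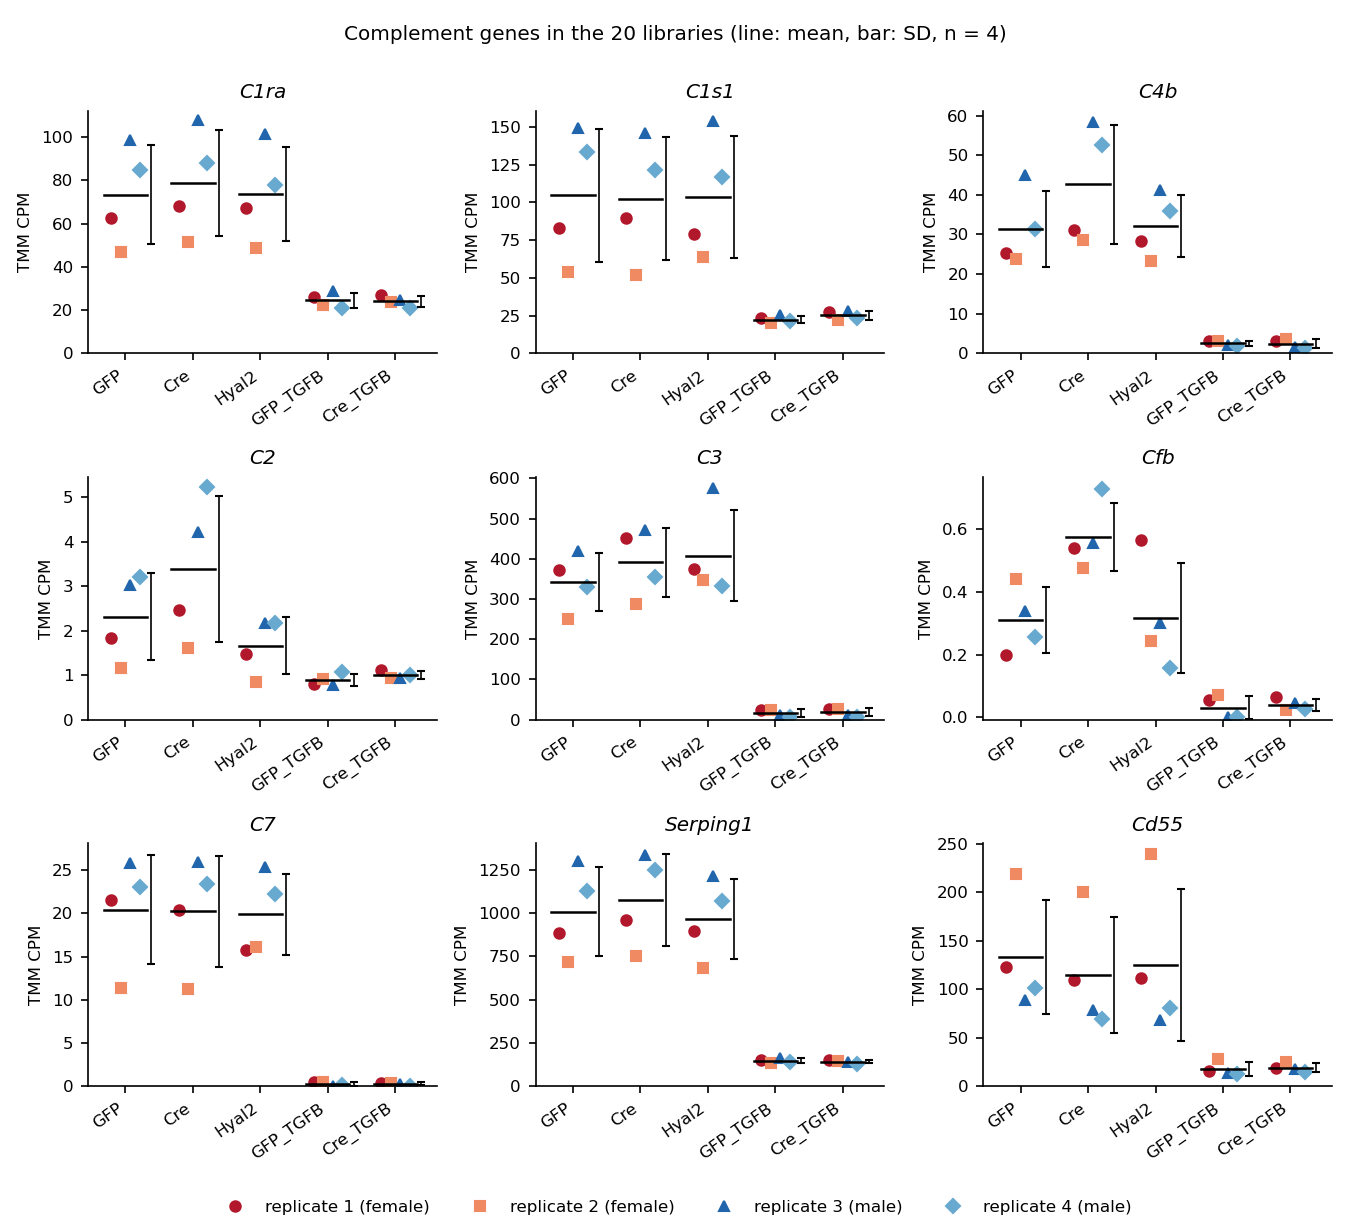
Level of each of the 9 complement genes (TMM-scaled CPM, y axis, 1 panel per gene, each with its own scale) in the 5 groups (x axis). Points are the 4 replicates, female replicates 1 and 2 and male replicates 3 and 4; the line is the mean and the bar the SD (n = 4). All 9 genes lie lower in GFP_TGFB and Cre_TGFB than in the 3 groups without TGFB, C3 for example at 16.6 against 343 CPM in the GFP pair.

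The comparison of GFP_TGFB with GFP asks what TGFB does to fibroblasts that carry the control virus, and Cre_TGFB with Cre asks the same after the Hyal2 deletion virus. All 9 complement genes were lower with TGFB in both comparisons, from the 2.55-fold lower C2 to the 70.3-fold lower C7 in the GFP pair. Among all genes tested, 28.6% were called lower in GFP_TGFB against GFP and 29% in Cre_TGFB against Cre (edgeR, adjusted p under 0.05). A drop of at least 2-fold with a call was seen in 12.6% and 13% of genes, and in 9 of 9 members in both pairs. The members' median log2 fold change was -2.94 in the GFP pair and -2.92 in the Cre pair, against -0.02 and -0.00423 over all genes tested. In both pairs the 4 libraries with TGFB lay wholly below the 4 without it for 9 of 9 members, which was so for 25.5% and 26.3% of all genes. Both pairs come from the same 4 isolates, but from separate libraries. The members were chosen with earlier results of these data known, so the shares beside all genes are a description and no test of the set. A gene could also pass the filter on low counts through the groups without TGFB, as Cfb did.

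The proteases that start the classical route fell together. C1ra (ENSMUSG00000055172), which encodes C1r, stood at 62.7, 47.0, 98.6 and 84.6 CPM in GFP replicates 1 to 4 and at 26.04, 22.2, 28.7 and 20.7 CPM in GFP_TGFB. All 4 GFP libraries lay above all 4 GFP_TGFB libraries, and the male isolates 3 and 4 were the highest without TGFB, while with it isolate 3 was the highest and isolate 4 the lowest. The log2 fold change was -1.58 (SE 0.24, n = 4 per group, edgeR adjusted p = 1.73e-05). In Cre the levels were 68.1, 51.5, 108 and 87.9 CPM and in Cre_TGFB 26.7, 23.7, 24.6 and 20.8 CPM, 3.28-fold lower (log2 -1.71, SE 0.24, edgeR adjusted p = 6.94e-06).

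C1s1 (ENSMUSG00000038521) encodes C1s, the protease that cuts C4 and C2. It stood at 83.2, 53.9, 149 and 133 CPM in GFP and at 23.2, 19.8, 25.1 and 21.3 CPM in GFP_TGFB. The groups did not overlap, and the spread between isolates shrank from an SD of 44 CPM to 2.27 CPM. The change was 4.69-fold lower (log2 -2.23, SE 0.32, edgeR adjusted p = 9.71e-06). With the Cre virus the levels were 90.0, 52.1, 146 and 122 CPM without TGFB and 27.1, 21.9, 28.1 and 23.6 CPM with it, 4.06-fold lower (edgeR adjusted p = 2.6e-05).

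The 2 substrates of C1s differed in how far they fell. C4b (ENSMUSG00000073418), the mouse C4 gene, stood at 25.3, 23.9, 44.9 and 31.3 CPM in GFP and at 3.01, 3.09, 2.17 and 1.76 CPM in GFP_TGFB. Without TGFB the male isolates were the higher ones; with TGFB they were the lower ones. The change was 12.4-fold lower (log2 -3.63, SE 0.33, edgeR adjusted p = 2.77e-08). In Cre the levels were 31.2, 28.5, 58.4 and 52.5 CPM, and in Cre_TGFB 3.13, 3.69, 1.62 and 1.40 CPM, 17.2-fold lower (log2 -4.10, SE 0.33, edgeR adjusted p = 6.01e-09). C4a, a near-identical copy, lay at 0.345 ± 0.149 CPM in GFP and 0.433 ± 0.0661 CPM in GFP_TGFB (SD, n = 4), and reads may be shared between the copies. The copies C1rb, C1s2 and Cd55b of other members lay at means of 0.0089, 0.221 and 0.01 CPM in GFP.

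C2 (ENSMUSG00000024371), which encodes the protease partner of C4b, had low levels and the smallest change of the 9 members in the GFP pair. Its levels were 1.84, 1.17, 3.04 and 3.21 CPM in GFP and 0.813, 0.915, 0.791 and 1.07 CPM in GFP_TGFB. The groups stayed apart by a narrow gap, between 1.17 CPM in GFP replicate 2 and 1.07 CPM in GFP_TGFB replicate 4. The log2 fold change was -1.35 (SE 0.37, edgeR adjusted p = 0.00419). Without the replicate 3 libraries the log2 fold change was -1.12 and missed the threshold (edgeR adjusted p = 0.0567), as it did in the female libraries alone (-0.77, edgeR adjusted p = 0.101). In the Cre pair C2 stood at 2.48, 1.62, 4.22 and 5.23 CPM against 1.12, 0.933, 0.930 and 1.01 CPM, 3.36-fold lower (edgeR adjusted p = 0.00037).

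C3 (ENSMUSG00000024164) is the component on which all routes converge. It stood at 372, 251, 418 and 329 CPM in GFP and at 25.3, 23.2, 11.4 and 6.52 CPM in GFP_TGFB. The highest library with TGFB, at 25.3 CPM, lay far below the lowest without it, at 251 CPM, and with TGFB the male isolates 3 and 4 were the lowest. The mean went from 343 ± 71.4 to 16.6 ± 9.09 CPM (SD, n = 4), 20.6-fold lower (log2 -4.36, SE 0.43, edgeR adjusted p = 8.7e-08). In Cre the levels were 452, 287, 470 and 354 CPM, and in Cre_TGFB 27.7, 26.4, 11.8 and 7.41 CPM, 21.2-fold lower (edgeR adjusted p = 7.95e-08).

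Cfb (ENSMUSG00000090231), factor B of the alternative route, was near the limit of detection. It stood at 0.200, 0.442, 0.338 and 0.258 CPM in GFP, which rests on 9 to 33 counts per library. In GFP_TGFB it stood at 0.0542 and 0.0693 CPM in replicates 1 and 2 and had 0 counts in replicates 3 and 4. The counts pooled over the 4 libraries were 68 in GFP and 7 in GFP_TGFB, a ratio of 8.89-fold lower (95% interval from counting error only, 4.09 to 22.9). The edgeR log2 fold change was -3.06 (SE 0.57, edgeR adjusted p = 0.000153). In the Cre pair 161 counts stood against 10, a 12.9-fold lower ratio (95% interval 6.85 to 27.5). C2 and Cfb lie side by side, and both overlap an annotated read-through gene on the same strand, Gm20547, which was listed at 0 in all 20 libraries. How reads in these overlaps were counted is not given in the sources used here.

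C7 (ENSMUSG00000079105), a component of the membrane pore, showed the largest drop of the 9 genes in both pairs. It stood at 21.5, 11.3, 25.9 and 23.04 CPM in GFP and at 0.488, 0.443, 0.051 and 0.0977 CPM in GFP_TGFB, where the male libraries were lowest and each library held 2 to 32 counts. Pooled counts were 3946 in GFP and 56 in GFP_TGFB, 64.5-fold lower (95% interval from counting error only, 49.6 to 85.5). The fitted log2 fold change was -6.14 (SE 0.47, edgeR adjusted p = 2.8e-09). In Cre the levels were 20.4, 11.2, 25.9 and 23.4 CPM, and in Cre_TGFB 0.411, 0.369, 0.207 and 0.0259 CPM, 73.7-fold lower as fitted (log2 -6.20, SE 0.46, edgeR adjusted p = 2.01e-09).

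The 2 regulators among the members fell as well. Serping1 (ENSMUSG00000023224), encoding C1 inhibitor, stood at 888, 716, 1302 and 1126 CPM in GFP and at 152, 136, 164 and 137 CPM in GFP_TGFB. The 4 libraries with TGFB were close to each other, whereas those without it ranged over isolates in the same order as C1ra. The change was 6.86-fold lower (log2 -2.78, SE 0.20, edgeR adjusted p = 1.4e-09), the smallest standard error of the 9 genes. In Cre the levels were 962, 754, 1335 and 1251 CPM, and in Cre_TGFB 153, 146, 140 and 129 CPM, 7.57-fold lower (edgeR adjusted p = 7.56e-10).

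Cd55 (ENSMUSG00000026399) encodes a membrane-anchored protein that breaks up the C3-cutting enzymes on the cell's own surface. It stood at 123, 219, 88.5 and 102 CPM in GFP and at 15.6, 27.9, 13.2 and 12.6 CPM in GFP_TGFB. Isolate 2 was the highest with and without TGFB, and the groups did not overlap. The change was 7.65-fold lower (log2 -2.94, SE 0.43, edgeR adjusted p = 9.91e-06). The 4 paired differences by isolate were -2.98, -2.97, -2.75 and -3.01 on the log2 scale, closer together than those of the other 8 members in this pair. In Cre the levels were 109, 201, 78.5 and 69.5 CPM, and in Cre_TGFB 18.6, 24.97, 17.7 and 14.2 CPM, 6.07-fold lower (edgeR adjusted p = 3.23e-05).

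**Figure D2:**
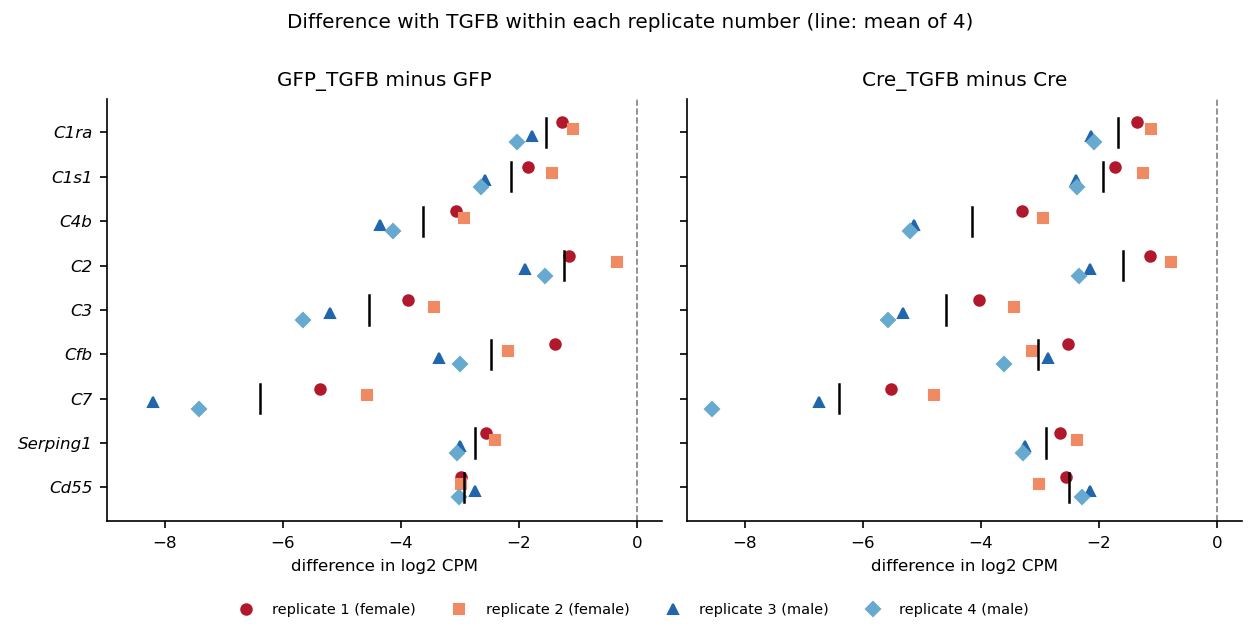
Paired log2 difference of each complement gene (rows) between the cultures with and without TGFB of the same isolate, with the GFP virus (left) and the Cre virus (right). Points are the 4 replicate numbers; the dashed line marks no difference. All points lie left of 0, from -0.34 for C2 in replicate 2 to -8.20 for C7 in replicate 3 in the GFP pair.

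Markers of several other cell types were also lower with TGFB, and pericyte markers moved in both directions. Across all genes tested, 28.6% were called lower in GFP_TGFB against GFP, the pair used for the counts here. Macrophage markers summed to 193 to 447 CPM in GFP and 115 to 280 CPM in GFP_TGFB, with 7 of 12 called lower. Most of that sum came from Lyz2 (224 against 149 CPM). Mesothelium markers summed to 589 to 662 CPM in GFP and 184 to 274 CPM in GFP_TGFB, nearly all of it from Aldh1a2 (609 against 216 CPM), while Wt1 and Msln lay at 0.576 and 0.135 CPM in GFP. Endothelium markers summed to 38.2 to 42.5 CPM and 16.8 to 22.1 CPM, with 4 of 8 called lower. Pericyte markers summed to 139 to 194 CPM in GFP and 143 to 182 CPM in GFP_TGFB. Of the 6 that were tested, Cspg4 (2.55 against 64.6 CPM) and Mcam (33.9 against 56.9 CPM) were called higher with TGFB, and Notch3 (127 against 38.7 CPM) and Kcnj8 were called lower. Fibroblast markers themselves summed to 43764 to 66017 CPM and 37706 to 46850 CPM, with 8 of 11 called lower and 1 higher. The part of these shifts in the fall of the complement genes was not tested.

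A list of 51 further complement genes was described in the same fit; 47 had a count in some library and 31 passed the filter on low counts. In GFP_TGFB against GFP, 14 of these 31 were called lower and 2 higher, with a median log2 fold change of -0.88. In Cre_TGFB against Cre, 15 were called lower and 2 higher, with a median of -0.83. With the replicate block 20 and 18 were called lower, against 32.1% and 32.6% of all genes. Without it the shares stand beside 28.6% and 29% of all genes, and a gene could pass the filter through the group in which it is high.

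Among the soluble regulators, Cfi, which encodes the protease that cuts C3b and C4b, fell from 12.3 ± 3.81 to 1.74 ± 0.342 CPM (SD, n = 4; log2 -2.82, edgeR adjusted p = 1.06e-08). Clu, encoding clusterin, an inhibitor of pore assembly, was called lower in GFP_TGFB (-1.72, edgeR adjusted p = 0.0451) and lay at the threshold in Cre_TGFB (-1.65, edgeR adjusted p = 0.05). Cfhr2 had -1.61 and was called lower in both pairs, and C4bp had -1.04 and was called in neither.

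Some membrane regulators fell and others changed little, and none was called higher. Csmd1 fell from 3.95 ± 2.44 to 0.0622 ± 0.0366 CPM (SD, n = 4), with 1 to 4 counts per GFP_TGFB library, and Cd59b from 0.578 ± 0.118 to 0.312 ± 0.0421 CPM. Cr1l, the mouse gene for a broadly expressed C3 and C4 regulator, stood at 54.6 ± 3.41 CPM in GFP and 57.3 ± 9.97 CPM in GFP_TGFB, a log2 difference of 0.07 (edgeR adjusted p = 0.625). Cd59a, which blocks the last step of pore assembly, had a log2 difference of -0.24 (edgeR adjusted p = 0.0906), and Cd46 one of -0.01 (edgeR adjusted p = 0.98).

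In the lectin route, which is started by sugar-binding proteins, Colec12, a scavenger receptor with a collectin domain, fell from 267 ± 71.2 to 46.7 ± 0.918 CPM (log2 -2.51, SE 0.22, edgeR adjusted p = 1.79e-08). Fcna was called lower at -1.61 from 0.462 CPM. The protease gene Masp1 had -0.29 (edgeR adjusted p = 0.196) in the GFP pair and -0.60 (edgeR adjusted p = 0.00952) in the Cre pair, and Colec11 had 0.37 and was called in neither. Among classical components, C1rl fell by 0.48 on the log2 scale, while C4a had 0.35 and C1s2 had -0.07, neither called. The genes C1qa, C1qb and C1qc, which macrophages are known to express, stood at 33.5, 33.9 and 27.9 CPM in GFP with log2 fold changes of -0.95, -0.997 and -0.89; of these C1qa was called (edgeR adjusted p = 0.0386). Cfp, encoding properdin, was called lower at -0.88. Of the terminal components, C8g was called lower at -1.47, and Hc, which encodes C5, had 0.26 (edgeR adjusted p = 0.482).

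Receptors went both ways. C3ar1 and C5ar1, the receptors of the fragments C3a and C5a, were called lower, at -1.01 and -1.06. C5ar2, a further C5a receptor, was called higher at 1.69, from 0.0736 ± 0.0223 to 0.238 ± 0.0756 CPM (SD, n = 4). C1qbp, a mostly mitochondrial protein that binds C1q, rose from 50.9 ± 8.49 to 115 ± 15 CPM (log2 1.18, SE 0.14, edgeR adjusted p = 1.17e-06). Itgam, Itgax, Itgb2 and Cd93 had -0.68, 0.21, -0.27 and -0.11, none of them called.

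**Figure D3:**
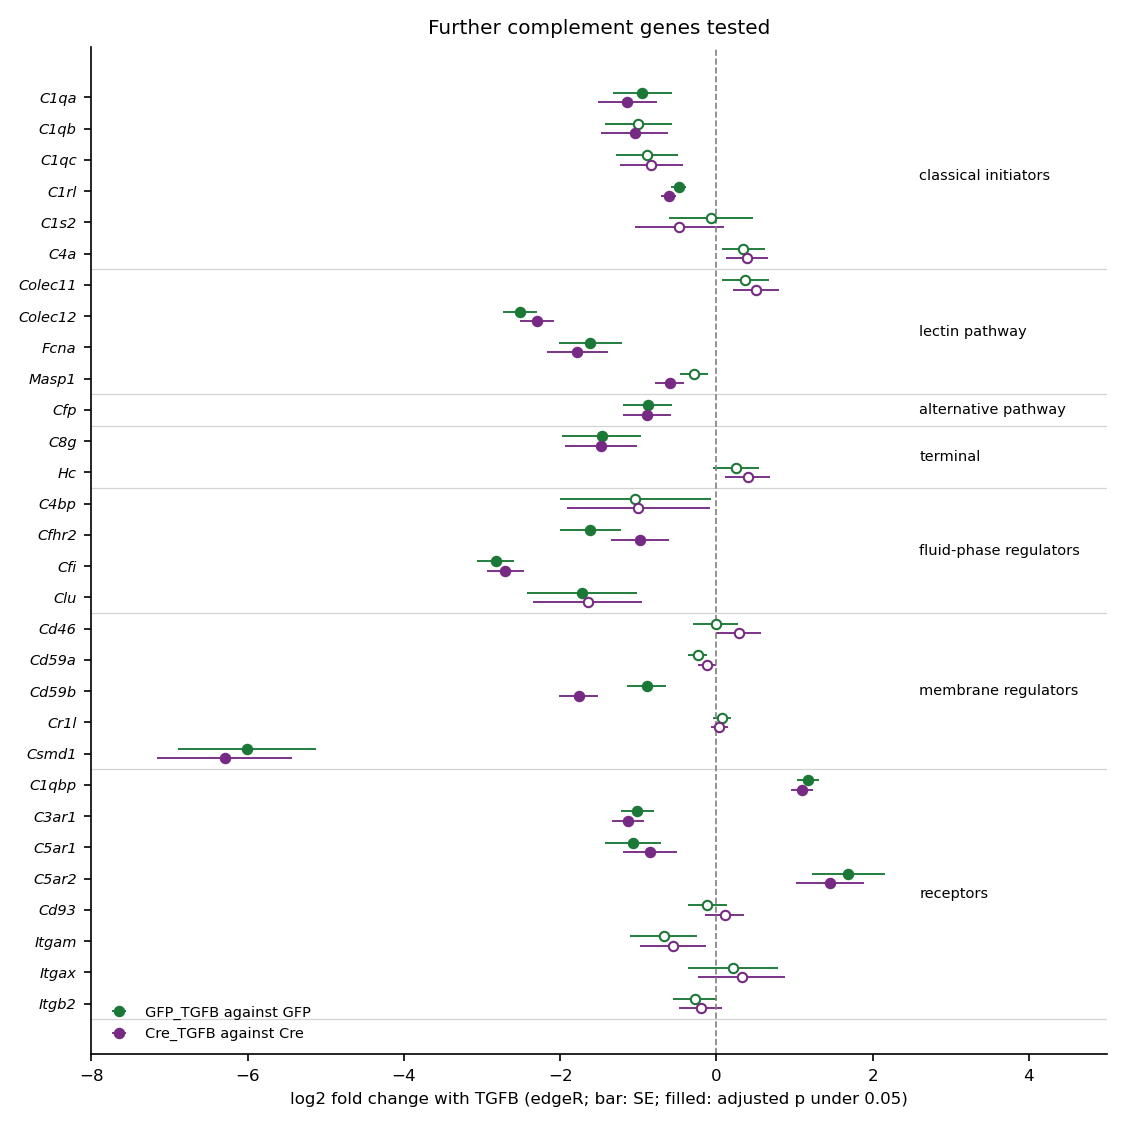
Log2 fold change with TGFB of further complement genes tested (rows, grouped by role), with the GFP virus and the Cre virus as the 2 colours. Bars are the standard error derived from the edgeR F statistic, and filled points passed an adjusted p under 0.05. Csmd1 lies farthest to the left at -6.01 in the GFP pair, and C1qbp and C5ar2 are the 2 genes filled to the right of 0.

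Genes that drive complement transcription in other settings, such as interferon, interleukin and C/EBP genes, were also described. Of 20 such genes, 16 were called lower and 1 higher in GFP_TGFB against GFP, and 17 lower and 1 higher in Cre_TGFB against Cre. Of all genes tested, 28.6% and 29% were called lower in these pairs. The receptor of interleukin 1, Il1r1, had the smallest p, with 336 ± 83.9 CPM in GFP and 31.8 ± 1.78 CPM in GFP_TGFB (SD, n = 4; log2 -3.40, SE 0.22, edgeR adjusted p = 2.13e-10). Il6st, the shared receptor chain of interleukin 6 and oncostatin M, fell by 2.10 on the log2 scale (edgeR adjusted p = 2.45e-09), Tnfrsf1a, a receptor of tumour necrosis factor, by 0.98 (edgeR adjusted p = 4.39e-09) and Osmr, the oncostatin M receptor, by 1.36 (edgeR adjusted p = 8.55e-09). Ifngr2, a chain of the interferon gamma receptor, was the 1 gene called higher, at 0.50. Whether these genes have a part in the fall of the complement genes was not tested.

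The comparisons of Cre with GFP and of Hyal2 with GFP ask whether less or more Hyal2 alters the fibroblasts without TGFB, and they share the GFP libraries. The Cre cultures also carry Cre in place of GFP, and no group carried Cre without the loss of Hyal2. An effect of Cre itself and one of the Hyal2 deletion cannot be told apart here. None of the 9 members was called in either comparison. EdgeR called 0.0064% of all genes in Cre against GFP and 0.0064% in Hyal2 against GFP, a share that is Hyal2 alone in both. In Cre against GFP with no block, 1 member, Cfb, had an unadjusted p under 0.05, against 711 of the 15624 genes tested. With the replicate block, which removes differences between isolates, 0.269% of all genes were called and 0 members; DESeq2 and limma-voom called 0 members too.

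Cfb showed the largest difference of the 9 genes with the Cre virus. It stood at 0.541, 0.477, 0.555 and 0.730 CPM in Cre, above the highest GFP library at 0.442 CPM. The groups did not overlap, as was the case for 3.68% of all genes in either direction. The pooled counts were 161 in Cre and 68 in GFP, 171% of the GFP level in CPM (95% interval from counting error only, 128% to 230%). The log2 fold change was 0.85 (95% interval 0.04 to 1.66, edgeR adjusted p = 0.926; unadjusted, the p is below 0.05). The paired difference was above 0 in 4 of 4 isolates, from 0.10 to 1.38.

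C2 and C4b lay higher with the Cre virus in each isolate, but with overlapping groups. For C2 the paired differences were 0.42, 0.46, 0.47 and 0.70 (fitted log2 fold change 0.55, 95% interval -0.18 to 1.28, edgeR adjusted p = 0.926). With the replicate block its unadjusted p was 0.0265 and its adjusted p 0.545. For C4b the paired differences were 0.30, 0.26, 0.38 and 0.74 (fitted 0.44, 95% interval -0.16 to 1.05, edgeR adjusted p = 0.926). C3, C1ra and Serping1 were above GFP in 4 of 4 isolates too, with fitted values of 0.19, 0.11 and 0.09. Cd55 was below GFP in 4 of 4 isolates, with a fitted value of -0.22 (95% interval -1.06 to 0.62). The 95% intervals of fitted values in the virus comparisons come from the fit with no block, which does not remove differences between isolates. With the replicate block the value for Cd55 was -0.25, and its SE went from 0.39 to 0.13. For C4b the SE hardly changed, from 0.284 to 0.278. In all, 6 of 9 members were above 0 in every isolate and 1 was below, against 15.9% and 13.2% of all genes. C7 and C1s1 had mixed signs, with fitted values of -0.01 and -0.03.

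Of the 20 inducer genes, 0 were called in Cre against GFP by edgeR, DESeq2 or limma-voom. In edgeR 4 had an unadjusted p under 0.05, against 711 of the 15624 genes tested. Stat2, Irf1 and Irf9, named after their values were seen, are among these 4 and encode transcription factors of the interferon response. Stat2 stood at 167 ± 40.8 CPM in GFP and 275 ± 74.1 CPM in Cre (SD, n = 4), with a log2 difference of 0.72 (SE 0.22, edgeR adjusted p = 0.635) and all 4 isolates above 0. Under the replicate block the edgeR adjusted p of Stat2 was 0.0948. The smallest edgeR adjusted p among the 20 was 0.45 with no block and 0.0654 with it, in neither case that of Stat2.

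With the Hyal2 virus, C3 stood at 374, 348, 575 and 333 CPM, the 575 CPM of replicate 3 apart from the others. C3 was above GFP in 4 of 4 isolates (fitted 0.25, 95% interval -0.55 to 1.05, edgeR adjusted p = 1), although by 0.00486 and 0.02 in isolates 1 and 4. C2 stood at 1.48, 0.849, 2.17 and 2.17 CPM, below GFP in 4 of 4 isolates by 0.31 to 0.56 on the log2 scale (fitted -0.46, 95% interval -1.21 to 0.29). These were the members with 1 direction in every isolate, against 7.89% of all genes above and 6.89% below. The other 7 members had mixed signs. Fitted values ranged from -0.46 to 0.25 and no member had an unadjusted p under 0.05 in edgeR, against 331 of the 15624 genes tested.

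**Figure D4:**
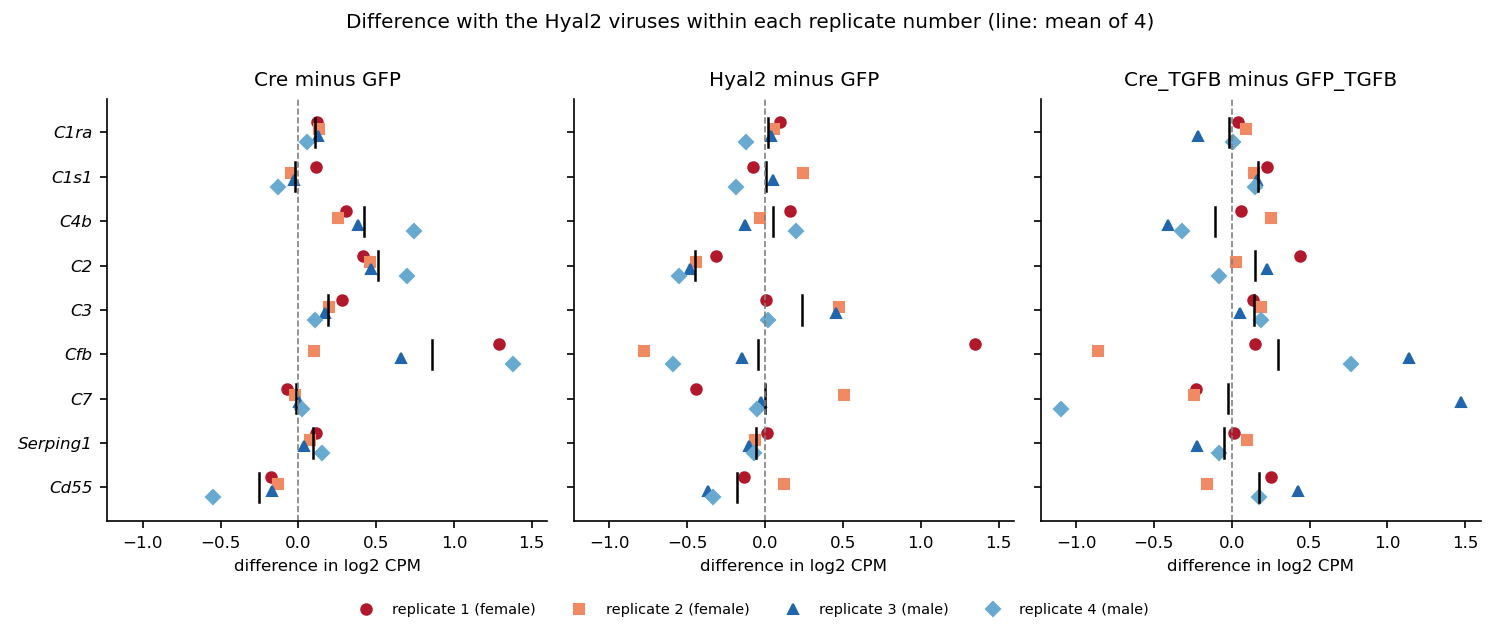
Paired log2 differences of the 9 complement genes (rows) between cultures of the same isolate, for Cre against GFP, Hyal2 against GFP and Cre_TGFB against GFP_TGFB (panels). Points are the 4 replicate numbers and the dashed line marks no difference. In Cre against GFP the 4 points of Cfb run from 0.10 to 1.38 and those of Cd55 from -0.55 to -0.13.

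In the presence of TGFB, Cre_TGFB against GFP_TGFB gave no call among the members, with 0.0064% of all genes called and fitted values from -0.08 for C7 to 0.23 for Cfb. C3 and C1s1 were above GFP_TGFB in 4 of 4 isolates (fitted 0.15 and 0.17), against 6.72% of all genes. The 95% interval was -0.68 to 0.97 for C3 and -0.45 to 0.35 for Serping1. Whether the Cre virus acts differently with TGFB was tested as an interaction. It called 0 of all genes and 0 members in edgeR, also with the replicate block. At an unadjusted p under 0.05, edgeR with no block found 397 genes and 0 members. With the replicate block, Cd55 passed this unadjusted threshold but was not called, at 0.45 (SE 0.18, 3 of 4 isolates above 0). How many of all genes passed it with the block is not given here. With no block the interaction was 0.33 for Cd55 (95% interval -0.87 to 1.54), -0.47 for C4b (-1.41 to 0.46) and -0.62 for Cfb (-2.56 to 1.32). By isolate, C4b and C1ra were below 0 in 4 of 4 and C1s1 above 0 in 4 of 4, against 9.36% and 9.29% of all genes.

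Differences between isolates recurred across the virus groups without TGFB. Over the 12 libraries without TGFB, the isolate held 97.8% of the sum of squares of log2 CPM for C1ra, 97.5% for C1s1, 95.8% for Serping1 and 94% for Cd55. The share was 85.8% for C7, 75.9% for C3, 75.1% for C4b, 68.4% for C2 and 3.8% for Cfb. C1ra, C1s1, Serping1 and C4b ranked the isolates the same way in 3 of 3 groups, with isolate 2 lowest and isolate 3 highest. Cd55 ran the other way, with isolate 2 highest in each group. Over the 8 libraries with TGFB the isolate share ran from 37.4% for C2 to 99.1% for C3, with 60.9% for Serping1. There C3, C4b, C1s1 and Cd55 ranked the isolates the same way with both viruses, and the other members did not.

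Within groups, the deviations of C1ra correlated with those of Serping1 at 0.99 and with those of C1s1 at 0.96 (Pearson, 20 libraries from 4 isolates, given as a description). C3 and C7 had 0.87. Cd55 had -0.86 with C1s1 and -0.83 with Serping1 within groups, although over all 20 libraries, where TGFB sets most of the range, the values were 0.73 and 0.85. These coefficients rest on 4 isolates that recur in each group.

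A split by sex was added after the values were seen. In GFP, 5 of 9 members were called higher in the 2 male than in the 2 female cultures, against 6.04% of all genes: C1s1 (log2 1.04, SE 0.25, edgeR adjusted p = 0.0186), C2 (1.08, adjusted p = 0.0188), C1ra (0.74, adjusted p = 0.0327), C4b (0.63, adjusted p = 0.0109) and Serping1 (0.60, adjusted p = 0.0162). C3 and C7 had 0.26 and 0.58, Cfb -0.18 and Cd55 -0.85, none of them called. With 2 isolates per sex, sex and isolate cannot be told apart. Each isolate also recurs in all groups, so these p-values can be too small. Without isolate 2 or without isolate 3 the number called was 0, without isolate 4 it was 1 and without isolate 1 it was 6.

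With TGFB the male to female ratio was lower than without it for each member but Cd55. The ratio of male to female means of C3 was 1.2 in GFP and 0.369 in GFP_TGFB, where the female libraries held 23.2 and 25.3 CPM and the male libraries 6.52 and 11.4 CPM. For C7 the ratio was 1.49 and 0.16, for C4b 1.55 and 0.644, and for C1s1 2.06 and 1.08. Cd55 kept a ratio below 1, at 0.556 and 0.592. The difference between the sexes in the TGFB effect, tested as such, was called, with no replicate block, for C4b alone of the 9 members with each virus: -1.27 with GFP (SE 0.25, edgeR adjusted p = 0.0207) and -2.03 with Cre (SE 0.24, edgeR adjusted p = 0.00433), against 0.454% and 0.0704% of all genes. The call for C4b with the GFP virus was lost when any 1 isolate was left out (edgeR adjusted p from 0.0599 to 0.405) and with limma-voom. With the Cre virus it was lost without isolate 2 (edgeR adjusted p = 0.232). This difference lies within isolates, so it can also be fitted with the replicate block, which raised the number of members called to 6 with each virus, all with the larger fall in the male isolates, against 2.82% of all genes called in that direction with GFP and 2.52% with Cre. C3, C4b, C1s1, C1ra and Serping1 were called with both viruses, C7 with GFP and C2 with Cre. For C3 the blocked difference was -1.77 with GFP (SE 0.22, edgeR adjusted p = 0.000769) and -1.70 with Cre (SE 0.21, edgeR adjusted p = 0.00113). For C4b it was -1.27 (edgeR adjusted p = 0.00159) and -2.06 (edgeR adjusted p = 6.71e-05). In all, 8 of 9 members had a larger fall in the male isolates with both viruses, Cd55 being the other one. The same 2 isolates per sex recur with both viruses, so the 2 viruses are not independent support. These p-values, blocked or not, can be too small, and sex and isolate cannot be told apart here either.

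**Figure D5:**
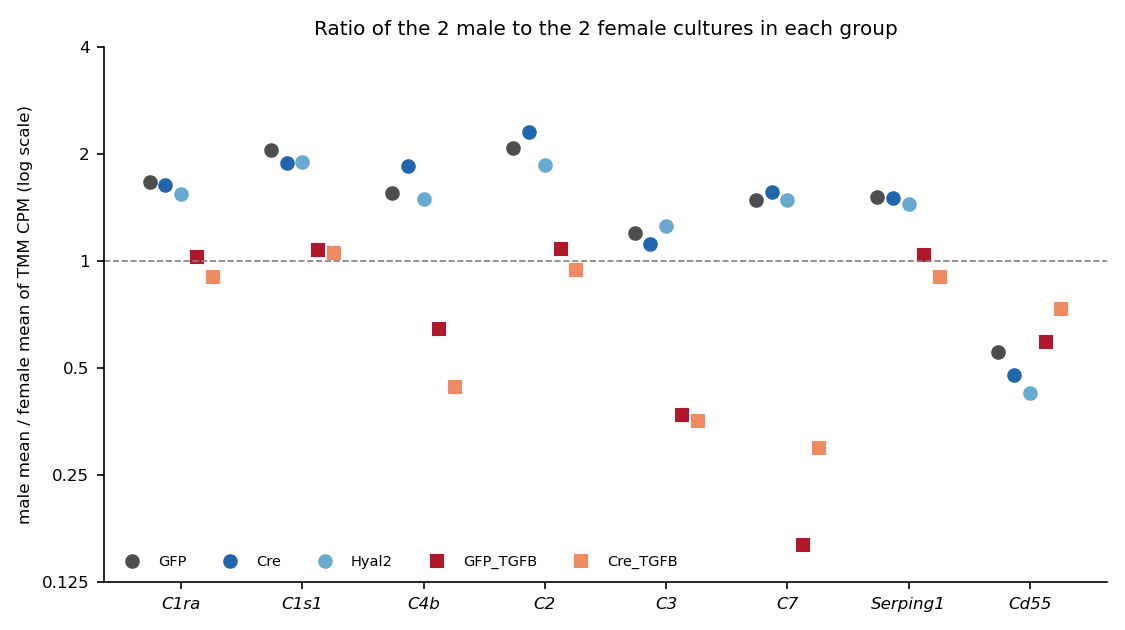
Ratio of the male to the female mean of TMM-scaled CPM (y axis, log scale) for 8 complement genes (x axis) in the 5 groups, each mean over 2 cultures; Cfb is left out because its male GFP_TGFB libraries had 0 counts. Circles are groups without TGFB and squares groups with it. C1s1 goes from 2.06 in GFP to 1.08 in GFP_TGFB and C7 from 1.49 to 0.16, while Cd55 lies below 1 in both.

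Genes with the most similar pattern were looked up among 10136 genes with a mean of at least 5 CPM, by Pearson's r of log2 CPM over the 20 libraries. The 5 genes closest to the mean of the members were Cldn15 (0.995), Sh3d19, Scrn1, Timp2 and Plpp3 (each 0.994). For single members the closest gene was Ccn5 for C3 (0.995), Timp2 for C4b (0.993), Pde7b for C7 (0.993), Gas6 for C1s1 (0.996), Dbp for C1ra (0.992), Ptgir for Serping1 (0.998) and Nudt4 for Cd55 (0.993). The low-count members had lower values, 0.946 for Cfb with Ccl2 and 0.941 for C2 with Plod1. Timp2 ranged from 524 to 1561 CPM and Plpp3 from 49.0 to 634 CPM over the libraries. As TGFB sets most of the range of all these genes, the coefficients describe that shared difference and the isolates.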

How the data were processed

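The deposited values are raw read counts per Ensembl gene, made by the authors with HTSeq 0.10.0 on GRCm39 (mm39) after FastQC 0.10.1, per the submitters' processing notes; libraries were of the NEBNext Ultra II kind, per the labels' protocols. The sources used here do not give the aligner, annotation release or use of strand, so overlapping, antisense or near-identical genes may share reads. All 20 columns were matched to samples, and 52081 of 55414 identifiers to symbols.

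Counts were tested with edgeR 4.0.16 (R 4.3.3): robust quasi-likelihood F test, TMM factors, 1 mean per group over all 20 libraries, 15 residual degrees of freedom, no block. Genes needed, in at least 4 libraries, the CPM that 10 counts make in a library of median size, and 15 counts in all (filterByExpr). Calls are Benjamini-Hochberg adjusted p under 0.05 over 15624 genes. CPM are TMM-scaled; log2 levels use a prior count of 2. Members and gene lists were chosen with earlier results of these data known. Genes named are Hyal2, all members, each tested gene of the wider complement list, at most 4 inducers by p per comparison, and the closest genes by correlation; some genes that this rule names are not reported here. Same-numbered libraries deviated together (r from 0.114 to 0.712, 10 pairs per number), and all 20 correlated best with their own number, so the numbers pair libraries across groups. No replicates were identical (0 of 30 pairs). The labels do not say that isolates are separate animals, so p-values measure the spread between these cultures. Alternatives were a replicate block, RLE factors, library totals, no filter, a filter of 1 CPM in 4 libraries, DESeq2 1.42.0, limma-voom (limma 3.58.1), only the groups compared and leaving out libraries. The sex fits were added after the data were seen. Scripts were tested on simulated data.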

Additional observations from a re-analysis of the deposited data

Results flagged for a closer look

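C3 in the Hyal2 group stood at 575 CPM in replicate 3, with the nearest of the other 3 libraries at 374 CPM, a gap of 0.833 of the group's range. Chance flags about 1 in 20 groups of 4, and 45 combinations of member and group were looked at.

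The difference between male and female isolates in the TGFB effect was called for C4b with both viruses, at -1.27 log2 units with the GFP virus and -2.03 with the Cre virus (male minus female, 2 isolates per sex, no replicate block). C4b fell from 38.1 to 1.96 CPM in the male GFP cultures and from 24.6 to 3.05 CPM in the female ones. With 2 isolates per sex, sex and isolate cannot be told apart.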

How the results depend on the processing

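All 9 members kept their direction in both comparisons of TGFB under every alternative run, and all kept their call except C2 in GFP_TGFB against GFP, without replicate 3 and in the female libraries alone. Cfb had no value with the filter of 1 CPM, in some fits of only the groups compared and in the sex fits with DESeq2. No member was called in any alternative of the 3 virus comparisons or the interaction. The replicate block changed no call of a member outside the sex split; with it, the wider list had 20 and 18 lower calls in the GFP and Cre pairs in place of 14 and 15. Scaling by library totals moved the median of all genes in GFP_TGFB against GFP from -0.02 to -0.13. Cfb and C7 with TGFB rest on few counts, and their fold is limited by depth.

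Counts of members called depended on the processing in the sex split. For male against female levels no paired analysis was possible because each isolate has 1 sex. In GFP, male against female, leaving out 1 isolate gave 0 to 6. For the sex difference in the TGFB effect, 1 member with each virus, the number was 3 (GFP virus) and 4 (Cre virus) with DESeq2, 6 and 8 without the filter, 0 with limma-voom for the GFP virus, and 6 with either virus with the replicate block. The 8 include Cd55, whose difference was above 0, unlike that of the others called. For DESeq2, limma-voom, no filter and isolates left out, the share of all genes called is not given. These counts therefore have no background beside them. Leaving out 1 isolate gave 0 to 1 with either virus. The cause was not tested.

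Small differences that were not called changed sign. C1ra in Cre_TGFB against GFP_TGFB was 0.0039 without the filter. In Hyal2 against GFP, C1s1 was 0.016 and C7 0.044 with limma-voom, C7 was 0.0011 with the replicate block and Cfb was 0.00015 with DESeq2. Leaving out libraries gave these ranges. For Cre against GFP they were -0.082 to 0.28 for C1ra, -0.25 to 0.19 for C1s1, -0.22 to 0.19 for C7, -0.63 to 0.13 for Cd55 and -0.040 to 0.24 for Serping1. For Hyal2 against GFP they were -0.18 to 0.19 for C1ra, -0.28 to 0.20 for C1s1, -0.10 to 0.26 for C4b, -0.24 to 0.10 for C7, -0.61 to 0.26 for Cd55, -0.57 to 0.35 for Cfb and -0.19 to 0.087 for Serping1. For Cre_TGFB against GFP_TGFB they were -0.094 to 0.063 for C1ra, -0.13 to 0.41 for C3, -0.26 to 0.14 for C4b, -0.46 to 0.39 for C7, -0.046 to 0.45 for Cd55, -0.14 to 1.38 for Cfb and -0.089 to 0.011 for Serping1. For the interaction they were -0.31 to 0.058 for C1ra, -0.011 to 0.43 for C1s1, -0.32 to 0.22 for C3, -0.45 to 0.41 for C7, -0.019 to 0.75 for Cd55 and -1.02 to 0.35 for Cfb. In the sex split they were -0.0065 to 0.55 for C3 and -0.59 to 0.56 for Cfb in GFP, -0.030 to 0.21 for Cd55 with the GFP virus and -1.35 to 0.28 for Cfb with the Cre virus.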
